A study of Rattus norvegicus with 4 samples.

Results

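Collagens are the triple-helical proteins of the extracellular matrix, and the enzymes examined with them hydroxylate or cross-link their chains. The genes were chosen by name, as every gene on the array called a collagen chain (Col, a number, a and a number), a prolyl 4-hydroxylase alpha subunit (P4ha), a lysyl hydroxylase (Plod) or a lysyl oxidase (Lox and Loxl). Col17a1 and Col7a1, which belong to the anchoring complexes of epithelium, were left out. This gave 49 genes of 14217, measured by 69 probe sets, and each gene was represented by its brightest probe set over the 4 arrays. Of the 49, 39 encode collagen chains (11 fibrillar, 7 of basement membrane and 21 other) and 10 encode modifying enzymes.

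The arrays held epithelium cut by laser microdissection from frozen sections of rat oral soft tissue. Junctional epithelium, which attaches the gingiva to the tooth, was on 2 arrays, and peri-implant epithelium, which faces a titanium alloy implant set where an upper first molar had been extracted, was on 2. The rats (Sprague Dawley, male) were operated on at an age of 4 weeks and killed 4 weeks after implant placement, and both groups carry the same label of tooth extraction with implant placement. In all 20 rats were killed, but the labels do not say how many contributed to an array or from which teeth the junctional tissue came. The p-values below therefore rest on the spread between these arrays, which may be technical. With 2 arrays per group, the test also draws each gene's spread towards that of genes of similar signal.

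As background, fibrillar collagens (types I, III, V and XI here) form the banded fibrils of connective tissue and are made mainly by fibroblasts. Type IV chains form the sheet-like network of basement membranes, to which epithelial and endothelial cells and fibroblasts can all contribute. In the endoplasmic reticulum prolyl 4-hydroxylases stabilise the triple helix and lysyl hydroxylases prepare lysines for glycosylation and cross-linking, and outside the cell lysyl oxidases form the cross-links.

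Signals were log2 values. Background was set at 6.42, the top value reached by the 27 unspiked bacterial controls, and 54.6% to 56.8% of 31042 probe sets exceeded it on each array. The mean of the hybridization controls was 14.03 on the first peri-implant array and lay between 13.70 and 13.76 elsewhere. All 12 listed epithelial markers exceeded background in at least 1 group, and the keratin gene Krt14 was 15.73 and 15.82 on the junctional and 16.10 and 15.82 on the peri-implant arrays. The junctional epithelium and enamel organ proteins Ambn and Amelx were below background on all 4 arrays and gave no check of that identity. The captured tissue also carried connective tissue transcripts, with the fibroblast proteoglycan Lum at 12.00 and 11.98 on the junctional and 12.06 and 12.03 on the peri-implant arrays. Fewer cells of a type and less RNA per cell cannot be told apart in such samples.

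In peri-implant epithelium the main type IV chains Col4a1 and Col4a2, the minor fibrillar chains Col11a1 and Col5a1, Col1a1, Col12a1, Col6a2, the lysyl hydroxylase Plod1 and the cross-linking enzyme Lox were higher than in junctional epithelium. Col5a2, Col5a3, the transmembrane collagen Col13a1, Col6a5 and Plod3 were lower. These 9 and 5 genes passed limma's test with an intensity trend in its variance prior (Benjamini-Hochberg adjusted p below 0.05 over 14217 genes). "Rose" and "fell" are used below of genes that passed it. The share called higher was 18.4% of the 49, against 7.39% of all genes, and the share called lower was 10.2% against 5.34%. With the arrays centred on their medians 10.2% of the 49 and 8.14% of all genes were called lower, and 16.3% and 5.38% higher. With 1 array left out, most of these calls were lost, among the 49 and over all genes alike. In either direction 28.6% of the 49 were called, against 12.7% of all genes. Those called were all among the 28 of the 49 with a mean signal above background. Over the array, 17.7% of the 9506 genes with such a mean were called. With limma's default prior 0 genes passed, or 0.0% of all genes (2861 at an unadjusted p below 0.05, among them 18 of the 49), and the 14 genes had adjusted p from 0.109 for Col11a1 to 0.296 for Col1a1. All 14 exceeded background on every array.

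**Figure D1:**
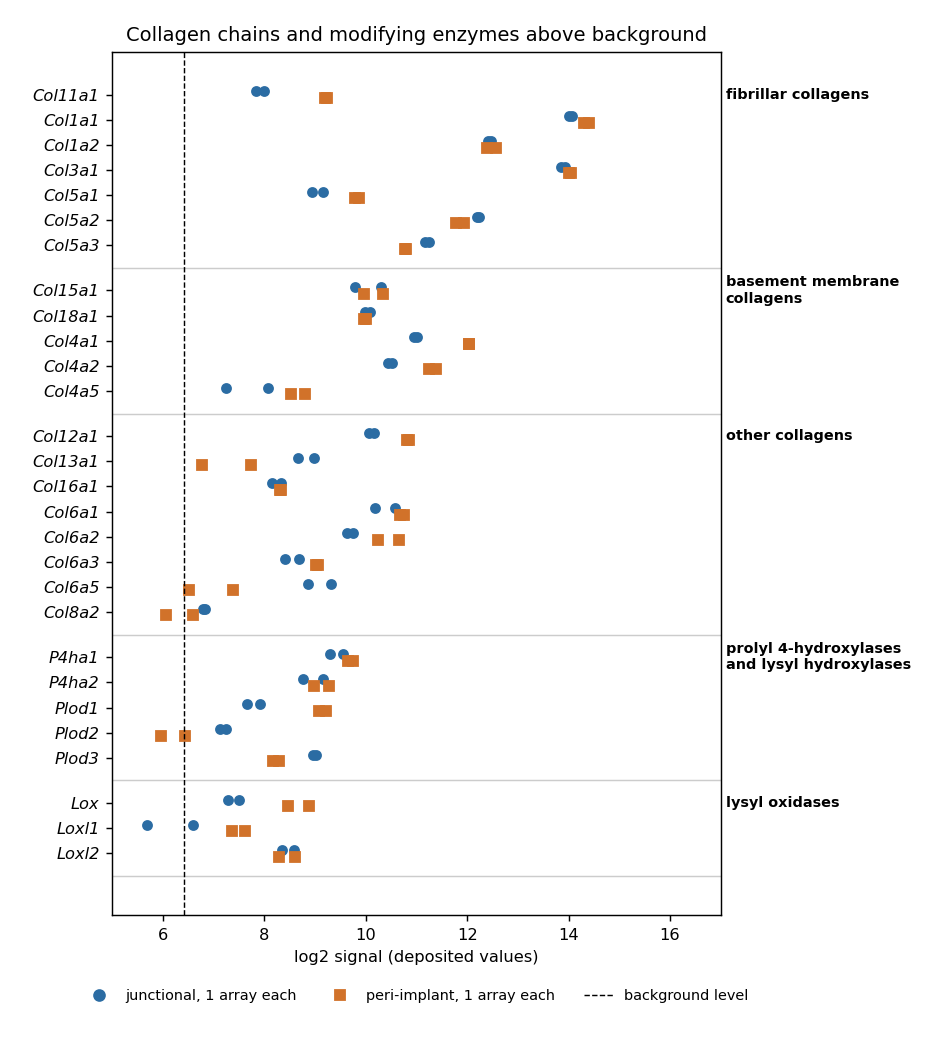
Log2 signal of the 28 collagen and enzyme genes with a group mean above background, by class, 1 point per array (circles junctional, squares peri-implant), with the background level of 6.42 dashed. The arrays of the groups stand apart for Col4a1 (10.95 and 11.00 against 12.04 and 12.04) and lie together for Col1a2 (12.41 and 12.47 against 12.39 and 12.56). Signals of different genes are not on a common scale.

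A group mean above background was found for 28 of the 49 genes, and 21 had none in either epithelium. The latter were the fibrillar chains Col2a1, Col11a2, Col24a1 and Col27a1, the type IV chains Col4a4 and Col4a6, 13 other chains (Col6a6, Col8a1, Col9a1, Col9a2, Col9a3, Col10a1, Col14a1, Col19a1, Col20a1, Col22a1, Col23a1, Col25a1 and Col26a1), P4ha3 and Loxl3. None of the 21 passed the test, and of these genes only Col27a1 and Loxl3 exceeded background on any array. For these genes the arrays give only a bound, and a difference between the epithelia was not measurable.

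Among the basement membrane collagens, Col4a1 and Col4a2 rose and 5 of 7 did not pass. Col4a1, which with Col4a2 makes up the type IV trimer found in nearly all basement membranes, was 10.95 and 11.00 on the junctional arrays and 12.04 and 12.04 on the peri-implant arrays. The peri-implant arrays were both higher, and the difference of 1.07 ± 0.09 (log2, SE) is a 2.1-fold change (adjusted p = 0.000171). Col4a2 was 10.44 and 10.52 on the junctional arrays and 11.24 and 11.38 on the peri-implant arrays. It rose by 0.83 ± 0.10, or 1.78-fold (adjusted p = 0.00177), again with no overlap of the groups. Within arrays, Col4a1 changed by 0.24 more than Col4a2. The other Col4a1 probe set gave a difference of 1.23. With 1 array left out, the lone array of that group is assumed to vary like the other group's 2. Under that assumption Col4a1 had adjusted p from 0.0133 to 0.0255, and Col4a2 did not pass without junctional replicate 1 (difference 0.79, adjusted p = 0.0587).

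The genes for Col4a1 and Col4a2 lie head to head, and the promoter windows of both are shown because the chains rose together. In the rat assembly GRCr8 the annotated starts are on opposite strands of chromosome 16, 77 bases apart (84885597 for Col4a1 and 84885520 for Col4a2), so the windows, 250 bases before to 50 after each start, share 176 bases. The Col4a1 window is chr16:84885347-84885646 on the plus strand and the Col4a2 window chr16:84885471-84885770 on the minus strand, both from RefSeq and printed 5′ to 3′. Capitals mark CCAAT and the GC box GGGCGG on either strand (ATTGG and CCGCCC on the reverse).
Col4a1: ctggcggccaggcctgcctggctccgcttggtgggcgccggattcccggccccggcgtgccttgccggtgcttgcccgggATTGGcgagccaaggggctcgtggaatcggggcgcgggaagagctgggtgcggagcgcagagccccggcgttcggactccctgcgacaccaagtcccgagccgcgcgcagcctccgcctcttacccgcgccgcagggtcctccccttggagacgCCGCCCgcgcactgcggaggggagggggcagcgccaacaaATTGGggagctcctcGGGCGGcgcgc
Col4a2: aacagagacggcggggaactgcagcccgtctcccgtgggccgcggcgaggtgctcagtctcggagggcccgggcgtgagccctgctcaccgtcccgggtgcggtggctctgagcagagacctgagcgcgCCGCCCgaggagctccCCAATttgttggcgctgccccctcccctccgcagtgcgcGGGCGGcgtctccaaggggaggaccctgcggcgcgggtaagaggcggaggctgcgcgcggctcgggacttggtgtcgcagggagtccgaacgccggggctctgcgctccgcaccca
The Col4a1 window held 2 CCAAT and 2 GGGCGG matches and the Col4a2 window 1 and 2. The 2 GGGCGG matches, and the CCAAT match of Col4a2, lie in the shared stretch. Neither window held TATAAA. Of 33469 promoter windows of the same length, 37.5% held CCAAT, 33.1% GGGCGG and 14.2% TATAAA on either strand. Windows were found for 41 of the 49 genes, of which 9 held CCAAT, 24 GGGCGG and 3 TATAAA. These matches describe the letters in the windows only.

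Col4a5, a chain of the more restricted type IV networks, was 7.25 and 8.07 on the junctional arrays and 8.53 and 8.80 on the peri-implant arrays. The groups did not overlap, but the junctional arrays lay far apart (SD 0.58). The difference was 1.01 ± 0.30 with a 95% interval of 0.34 to 1.68, and it did not pass (adjusted p = 0.0572). Col15a1 and Col18a1 encode the collagens of the basement membrane zone that carry glycosaminoglycan chains. Col15a1 was 9.79 and 10.29 on the junctional arrays and 9.96 and 10.33 on the peri-implant arrays, and Col18a1 was 10.09 and 9.99 against 10.00 and 9.96. In both genes the groups overlapped in this brightest probe set. The differences were 0.10 (95% interval -0.32 to 0.53) and -0.06 (-0.34 to 0.22), intervals that lie below the value measured for Col4a1. The other Col15a1 probe set above background was 9.23 and 9.10 against 8.74 and 8.99, with no overlap and a difference of -0.30. The class median was 0.33, or 0.10 once lower signals were raised to background, against 0.05 and 0.00 over all genes. Its sign was not stable, at -0.10 with the mean of each gene's probe sets and from -0.04 to 0.90 with 1 array left out.

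The fibrillar collagens moved in both directions, with 3 of 11 higher, 2 lower and 6 not past the test. Their median difference was 0.04, and 0.00 with background raised, near that of all genes. Col1a1, the main chain of type I collagen, was 14.00 and 14.06 on the junctional arrays and 14.40 and 14.30 on the peri-implant arrays. It rose by 0.32 ± 0.07, or 1.25-fold (adjusted p = 0.0215). With the arrays centred on their medians the call was lost (0.22, adjusted p = 0.116), as it was with the mean of its probe sets (0.26, adjusted p = 0.0532). Col1a2, its partner chain, was 12.41 and 12.47 against 12.39 and 12.56, with overlapping groups and a difference of 0.04 (95% interval -0.16 to 0.23). Col3a1, whose chains often share fibrils with type I, was 13.92 and 13.84 against 14.01 and 14.05. Its peri-implant arrays were both higher by little, and the difference of 0.15 (95% interval -0.01 to 0.31) did not pass (adjusted p = 0.204).

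Type V collagen, which sits inside type I fibrils and limits their width, had chains that went opposite ways. Col5a1 was 8.93 and 9.16 on the junctional arrays and 9.87 and 9.78 on the peri-implant arrays. It rose by 0.78 ± 0.15, or 1.72-fold (adjusted p = 0.0136), and its other probe set gave 0.76. Col5a2 was 12.19 and 12.24 against 11.77 and 11.93. Its peri-implant arrays were both lower, and it fell by 0.37 ± 0.09 on the log2 scale, or 1.29-fold (adjusted p = 0.0299). Its other probe set gave -0.06 and the mean of both -0.21, which did not pass (adjusted p = 0.144). Col5a3 was 11.16 and 11.24 against 10.79 and 10.77 and fell by 0.41 ± 0.10 on the log2 scale, or 1.33-fold (adjusted p = 0.0253). Within arrays, the change of Col5a1 exceeded that of Col5a2 by 1.15 and that of Col5a3 by 1.20. The within-array ratios did not overlap between the groups in either pair, but an exact permutation test of 2 arrays against 2 cannot go below p = 0.333 (two-sided), the value for both pairs.

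Col11a1, a chain that starts fibrils in cartilage and is also made in small amounts elsewhere, had the largest difference of the fibrillar chains above background. It was 7.83 and 7.99 on the junctional arrays and 9.24 and 9.20 on the peri-implant arrays, clearly apart, and rose by 1.31 ± 0.19, or 2.48-fold (adjusted p = 0.00362). A second probe set of the gene, also above background, gave a difference of 0.00, and the mean of its 3 probe sets gave 0.58, which did not pass (adjusted p = 0.259). The probe sets of Col11a1 therefore disagree. Without any 1 of the 4 arrays, Col1a1 (adjusted p from 0.0518 to 0.223), Col5a1 (0.0735 to 0.123), Col5a2 (0.0681 to 0.193) and Col5a3 (0.112 to 0.158) did not pass. Col11a1 did not pass without junctional replicate 1 (adjusted p = 0.0632), peri-implant replicate 1 (adjusted p = 0.0607) or peri-implant replicate 2 (adjusted p = 0.0613). Every one of these genes kept its direction, as it had to with groups that did not overlap.

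**Figure D2:**
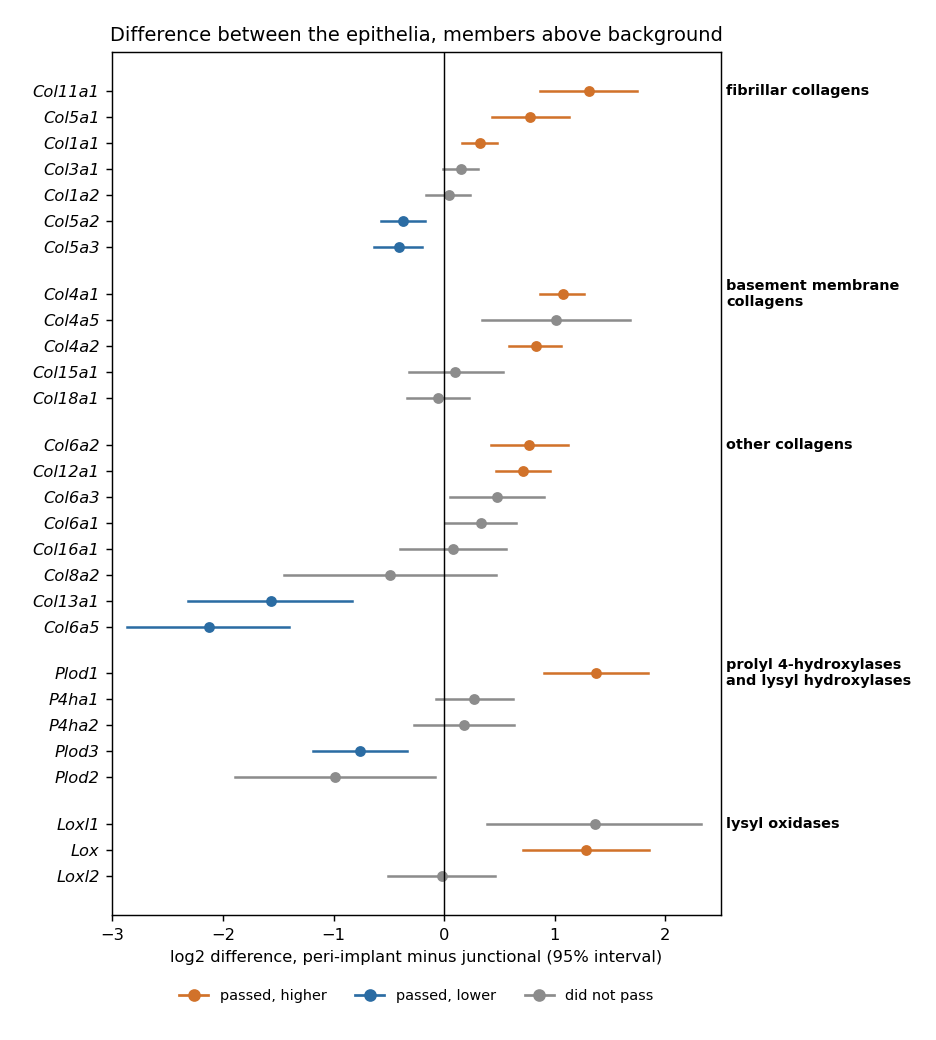
Log2 difference between the epithelia (peri-implant minus junctional, 2 arrays each) with the 95% interval of limma's fit with an intensity trend, for the 28 genes above background, sorted within class. Coloured genes passed at an adjusted p below 0.05 over all genes, from 1.37 for Plod1 to -2.13 for Col6a5, and the type V chains lie on both sides of 0.

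The 21 other collagens held the largest falls, with 2 higher, 2 lower and 17 not past the test, 13 of which were below background. The median difference was 0.08, and 0.00 with background raised. Col12a1, which coats type I fibrils, was 10.17 and 10.07 on the junctional arrays and 10.81 and 10.85 on the peri-implant arrays. It rose by 0.71 ± 0.11, or 1.64-fold (adjusted p = 0.00435), and its other 2 probe sets gave 0.44 and 0.40. Col16a1, of the same family of fibril-associated collagens, was 8.14 and 8.32 against 8.32 and 8.30, a difference of 0.08 (95% interval -0.40 to 0.56). Without any 1 of the 4 arrays Col12a1 did not pass (adjusted p from 0.0568 to 0.0716).

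Type VI collagen forms beaded filaments near cells, and its common trimer joins the chains Col6a1, Col6a2 and Col6a3. Col6a2 was 9.62 and 9.74 on the junctional arrays and 10.65 and 10.25 on the peri-implant arrays, and rose by 0.77 ± 0.16, or 1.71-fold (adjusted p = 0.0145). Col6a1 was 10.57 and 10.19 against 10.67 and 10.75, a difference of 0.33 (95% interval 0.01 to 0.65). Col6a3 was 8.69 and 8.41 against 9.02 and 9.05, a difference of 0.48 (0.05 to 0.90). Both were higher on each peri-implant array than on each junctional array and did not pass (adjusted p = 0.161 and 0.131). Within arrays, the change of Col6a2 exceeded that of Col6a1 by 0.44 and that of Col6a3 by 0.29, with overlapping groups, so that unequal change of the 3 chains was not shown. Col6a2 did not pass with the mean of its probe sets (0.71, adjusted p = 0.0831), nor without junctional replicate 1 (0.71, adjusted p = 0.158), junctional replicate 2 (0.83, adjusted p = 0.113) or peri-implant replicate 1 (0.57, adjusted p = 0.118).

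Col6a5, an alternative chain that can take the place of Col6a3, moved the other way. It was 9.31 and 8.85 on the junctional arrays and 7.38 and 6.51 on the peri-implant arrays. It fell by 2.13 ± 0.33 on the log2 scale, or 4.39-fold, the largest change among the 28 genes above background (adjusted p = 0.00435). The second peri-implant array lay just above background, and the peri-implant SD was 0.62. Col13a1, a transmembrane collagen of cell contacts, was 8.98 and 8.67 against 6.77 and 7.73. It fell by 1.57 ± 0.33 on the log2 scale, or 2.97-fold (adjusted p = 0.017), with a peri-implant SD of 0.68. In both genes the peri-implant arrays differed from each other by more than the junctional arrays did. Col6a5 passed only without peri-implant replicate 1 (adjusted p = 0.0205), and otherwise ran from 0.0504 without peri-implant replicate 2 to 0.117 without junctional replicate 1, with 0.0739 without junctional replicate 2. Col13a1 passed only without peri-implant replicate 2 (adjusted p = 0.0333), and gave 0.0911 without peri-implant replicate 1, 0.192 without junctional replicate 1 and 0.129 without junctional replicate 2. Without peri-implant replicate 1 the difference of Col13a1 was -1.09. Col8a2, a network-forming chain, was 6.83 and 6.79 against 6.05 and 6.59, at least 1.24-fold lower, which did not pass (adjusted p = 0.504).

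Of the 3 lysyl hydroxylases, Plod1 rose, Plod3 fell and Plod2 did not pass. Plod1, which hydroxylates lysines within the triple helix, was 7.65 and 7.91 on the junctional arrays and 9.22 and 9.08 on the peri-implant arrays. It rose by 1.37 ± 0.21, or 2.59-fold (adjusted p = 0.00413), the largest rise among the genes that passed. Plod3, which also adds glucose and galactose to hydroxylysine, was 9.02 and 8.96 against 8.16 and 8.29. It fell by 0.76 ± 0.19 on the log2 scale, or 1.70-fold (adjusted p = 0.0312). Plod2, which hydroxylates the telopeptide lysines used in stable cross-links, was 7.25 and 7.13 against 5.97 and 6.44. Its peri-implant arrays were both lower, 1 of them below background, and the fold of at least 1.69 did not pass (adjusted p = 0.143), except with signals below background raised to it (adjusted p = 0.0494). Plod1 passed only without junctional replicate 2 (adjusted p = 0.0488), and gave 0.0695 without junctional replicate 1, 0.0695 without peri-implant replicate 1 and 0.0602 without peri-implant replicate 2. Plod3 did not pass without any 1 of the 4 arrays (0.107 to 0.182).

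The prolyl 4-hydroxylase subunits P4ha1 and P4ha2, the catalytic subunits of the enzyme, did not pass. P4ha1 was 9.55 and 9.30 on the junctional arrays and 9.65 and 9.74 on the peri-implant arrays, a difference of 0.27 (95% interval -0.07 to 0.62). P4ha2 was 8.76 and 9.15 against 8.98 and 9.28, a difference of 0.18 (-0.27 to 0.63), and here the groups overlapped. The median of the 6 hydroxylases was -0.29, but 0.09 with background raised and 0.18 without P4ha3, the member below background.

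Among the 4 lysyl oxidases, Lox rose and 3 did not pass. Lox, the founding enzyme of the family, was 7.50 and 7.29 on the junctional arrays and 8.88 and 8.46 on the peri-implant arrays. It rose by 1.28 ± 0.25, or 2.42-fold (adjusted p = 0.0136), and its other probe set gave 1.54. Loxl1, best known for its part in elastic fibres, was 5.68 and 6.59 against 7.61 and 7.37. Both peri-implant arrays were higher and 1 junctional array was below background, and the fold of at least 1.98 did not pass (adjusted p = 0.0707). It did pass with signals below background raised to it (adjusted p = 0.0375) and among genes with a mean above background (adjusted p = 0.0343), as did Col4a5 in the latter (adjusted p = 0.025). Loxl2, which also oxidises lysines of type IV collagen, was 8.59 and 8.35 against 8.60 and 8.29. Its groups overlapped, with a difference of -0.02 (95% interval -0.51 to 0.46). Its other probe set was 6.84 and 6.72 against 7.04 and 7.62, with no overlap and a difference of 0.55. The class median was 1.32, and 0.56 with background raised. Without any 1 of the 4 arrays Lox did not pass (adjusted p from 0.067 to 0.13).

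**Figure D3:**
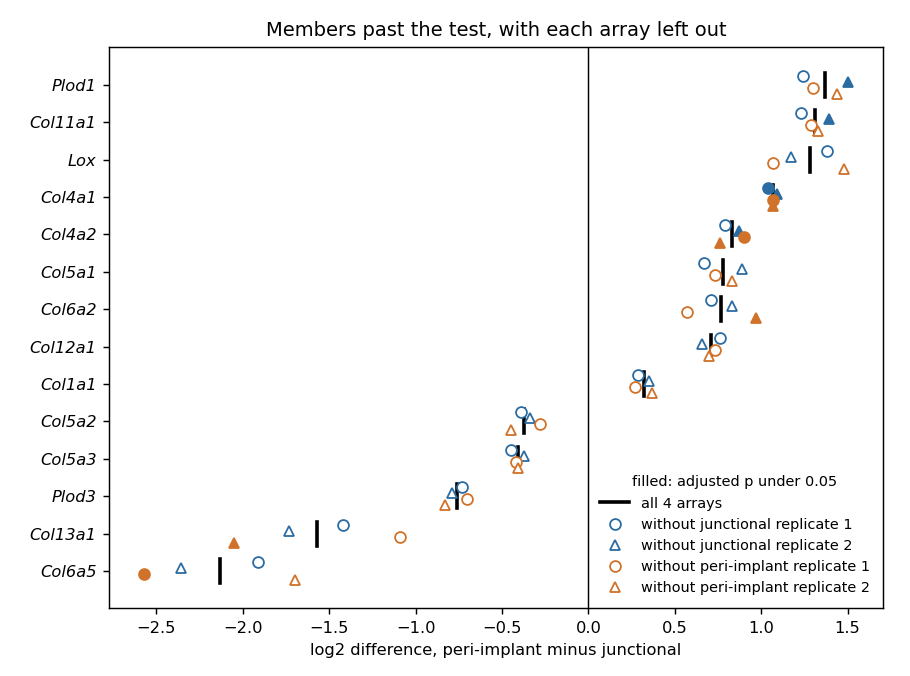
Log2 difference (peri-implant minus junctional) of the 14 genes past the test, from all 4 arrays (bars) and with each array left out (circles without replicate 1, triangles without replicate 2, blue for junctional and orange for peri-implant). Filled points had an adjusted p below 0.05. Direction could not turn, because the groups of these genes did not overlap, and the difference of Col4a1 ran from 1.04 to 1.09.

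With 1 array left out, the counts over all genes fell to between 170 and 231 higher and between 50 and 210 lower, from 1051 and 759. The spread in such fits comes from the 2 arrays of the other group and limma's prior, so they are a weak check of any call. All 14 genes kept their direction in each, which was fixed beforehand because their groups did not overlap. Without junctional replicate 1 only Col4a1 passed. Without junctional replicate 2 the genes past the test were Col4a1, Col4a2, Col11a1 and Plod1. Without peri-implant replicate 1 they were Col4a1, Col4a2 and Col6a5. Without peri-implant replicate 2 they were Col4a1, Col4a2, Col6a2 and Col13a1.

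Several genes were read by more than 1 probe set. Of the 14 genes past the test, 8 had another probe set above background, 9 probe sets in all, and the difference had the same sign in 8 of them and was 0.00 in Col11a1. It was close to that of the brightest probe set in Col4a1, Col5a1 and Lox, and near 0 in Col5a2. The other Col6a2 probe set was 6.55 and 6.32 on the junctional and 6.37 and 7.80 on the peri-implant arrays. Its groups overlapped, and its difference of 0.65 came from the second peri-implant array. In Col1a2, Col15a1 and Loxl2, none of which passed, probe sets above background went opposite ways, with -0.12, -0.30 and 0.55 for the dimmer probe set.

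**Figure D4:**
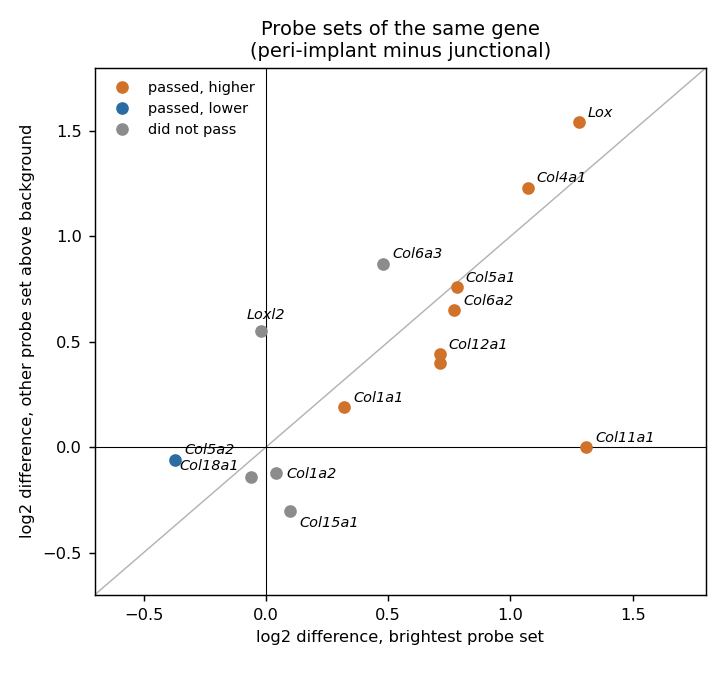
Log2 difference (peri-implant minus junctional) of the brightest probe set of a gene against that of each other probe set above background, for 13 genes. The grey line marks equal differences. Col4a1 (1.07 and 1.23) and Lox (1.28 and 1.54) lie near it, and Col11a1 (1.31 and 0.00) lies far from it.

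By position, 7 pairs of these genes were neighbours less than 150000 bases apart in GRCr8. Only for Col4a1 and Col4a2 did both members pass, and these genes lie 76 bases apart. Col4a5 and Col4a6 form a like pair on chromosome X with 1263 bases between them, where Col4a6 was below background on every array. Col3a1 and Col5a2 lie on chromosome 9 with 38189 bases between them and differed by 0.15 and -0.37. Col6a1 and Col6a2 lie on chromosome 20, 97070 bases apart, with differences of 0.33 and 0.77. Beside Col6a5 on chromosome 8, Col6a6 was below background. The other 2 pairs were Col9a1 with Col19a1, both below background, and Plod3 with Col26a1, of which the latter was below background.

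Of 37 further genes listed for collagen folding, trimming, assembly and binding, 26 were measured, and 2 rose, 2 fell and 22 did not pass. The share called, 15.4% of the 26, lay near the 12.7% of all genes. Those called were all among the 19 partners with a mean signal above background. Over the array, 17.7% of genes with such a mean were called. Of the 14 folding genes, Colgalt1, which adds galactose to hydroxylysine as the step before the glucose added by Plod3, was 9.46 and 9.42 on the junctional arrays and 8.43 and 7.92 on the peri-implant arrays. It fell by 1.27 ± 0.21 on the log2 scale (adjusted p = 0.00648) and was the only one that passed. The mean of its probe sets gave -0.19 (adjusted p = 0.589), and it did not pass without either junctional replicate (adjusted p = 0.116 and 0.1) or peri-implant replicate 2 (adjusted p = 0.0613). P4hb, the shared beta subunit of prolyl 4-hydroxylase, gave 0.08 (adjusted p = 0.522). The collagen chaperone Serpinh1 gave -0.30 (adjusted p = 0.0915) and the procollagen isomerase Fkbp10 gave 1.37 (adjusted p = 0.0526), with 1 junctional array below background. Of 7 trimming and assembly genes, the cross-linking transglutaminase Tgm2 alone passed. It was 11.93 and 12.07 against 12.64 and 12.70 and rose by 0.67 ± 0.08 (adjusted p = 0.0018), a call lost without junctional replicate 1 (adjusted p = 0.0634). Bmp1, the protease that trims procollagen ends, gave -0.45 (adjusted p = 0.083). Of 5 receptors, Ddr1, the collagen receptor kinase of epithelial cells, rose from 10.26 and 10.37 to 11.13 and 11.46, a difference of 0.98 ± 0.13 (adjusted p = 0.00202). The mean of its probe sets gave 0.51 (adjusted p = 0.0474), and it did not pass without either junctional replicate (adjusted p = 0.0774 and 0.0562). Itgb1, the shared beta chain of the collagen-binding integrins, fell by 0.32 ± 0.08 on the log2 scale (adjusted p = 0.0418). Its call was lost with the mean of its probe sets (-0.25, adjusted p = 0.102), with background raised (adjusted p = 0.0566) and without any 1 of the 4 arrays (adjusted p from 0.12 to 0.229). Ddr2, the related kinase of mesenchymal cells, was below background in both group means. So were Itga1 and Itga11, the listed integrin alpha chains that were measured, so the Itgb1 value does not speak for a collagen-binding pair. Serpinh1, P4hb, Fkbp10 and Bmp1 fall outside the naming rule and were chosen after their values were seen.

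Markers of other cells the captures could hold were measured on the same arrays. Of 12 fibroblast markers, 10 exceeded background in at least 1 group, Vim, Thy1 and Postn rose, Pdgfra and S100a4 fell, and Lum and Dcn differed by 0.05 and 0.02. Their summed linear signal was 17788 and 18093 on the junctional and 19401 and 19348 on the peri-implant arrays. All 7 measured endothelial markers exceeded background and 1, Egfl7, fell, with sums of 2501 and 2737 against 2110 and 1901. Tie1 was 7.19 and 7.39 against 8.15 and 8.17 and did not pass (0.87, adjusted p = 0.0582), Pecam1 and Kdr gave 0.09 and -0.06, and Tek, Vwf and Emcn gave -0.98, -0.84 and -0.69. Of 7 smooth muscle and pericyte markers, 5 exceeded background, Tagln rose and Cspg4 fell, with sums of 2837 and 2756 against 3112 and 3109. Of 5 measured osteoblast markers, 3 exceeded background, Alpl rose and Bglap fell, with sums of 1210 and 1474 against 882 and 1079. Epithelial sums were 232411 and 239600 against 291324 and 247760, with Krt15 and Krt4 higher. Of 8 macrophage markers, 7 exceeded background, Csf1r and C1qc rose and Mrc1 fell, with sums of 2386 and 2320 against 3444 and 3812. All 4 measured neutrophil markers rose, with sums of 38299 and 38567 against 103058 and 89693. Most of these sums is S100a8 and S100a9, which are also made by epithelium. No list had a member at 0 on all arrays. The part of fibroblasts, endothelium, pericytes, bone cells or leukocytes in the collagen differences was not tested.

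**Figure D5:**
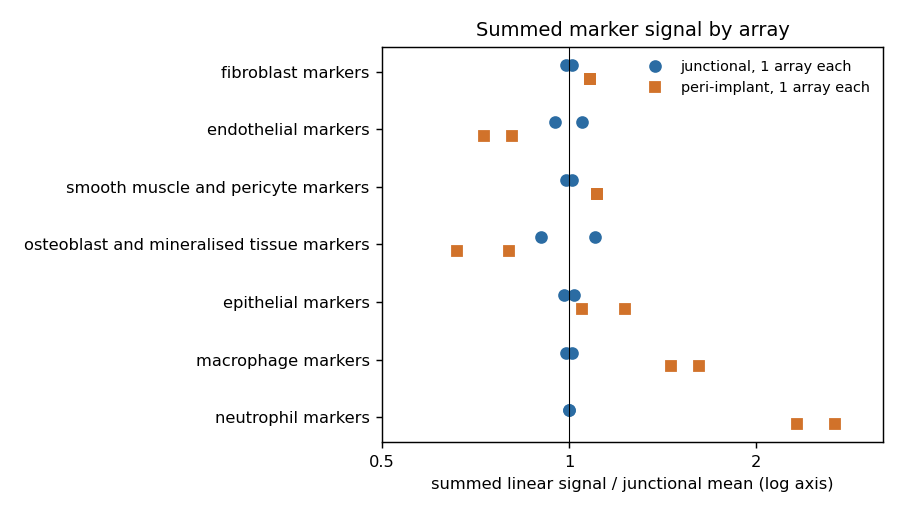
Summed linear signal of each marker list on each array, divided by the mean of the junctional arrays (log axis, circles junctional, squares peri-implant, 1 point per array). Fibroblast sums on the peri-implant arrays were 1.08 and 1.08 times the junctional mean, endothelial sums 0.81 and 0.73 times, and neutrophil sums 2.68 and 2.33 times. Most of the neutrophil sum is S100a8 and S100a9, which epithelium also makes. Signals of different genes are not on a common scale, so the brightest weigh most in a sum.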

How the data were processed

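The authors deposited log2 signals for 4 Affymetrix rat arrays, 2 per epithelium. Per the labels' protocols, total RNA (RNeasy Micro Kit, DNase-treated) was amplified with the Ovation system and biotin-labelled. The labels name neither their software nor their normalization. The deposited values show a linear mean of 500.19 on every array after trimming 2% at each end, and a floor at log2 0.

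The 57 control probe sets were left out. Genes came from the platform annotation (20826 probe sets with 1 symbol, 14217 genes), positions from the GRCr8 gene table. The 2 epithelia were compared by limma 3.58.1 under R 4.3.3 (lmFit, then eBayes with trend and robust both set, two-sided, Benjamini-Hochberg over all genes, threshold 0.05), tested on simulated data. Values are mean differences ± SE (n = 2 per group), whose precision the number of arrays limits. Where an array of the lower group was at or below background, signals were raised to it and the fold is given as "at least".

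The genes, lists and settings were chosen with earlier results of these data known. Named were Col1a1, Col1a2, Col3a1, Col4a1, Col4a2, the genes past the test, the 4 largest differences per class above background, and genes whose probe sets disagree (22). Another 6 above background complete the account. Of the partners, up to 6 past the test per list were named. Alternatives covered the variance prior, normalization, low values, probe sets, replicate block and each array left out.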

Additional observations from a re-analysis of the deposited data

How the results depend on the processing

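The 14 calls were the same genes without the robust prior and with quantile normalization. With quantile normalization, median centring and the mean of probe sets, 14 of 14 kept their direction. The other alternative runs could not turn a direction in these genes. With the default prior 0 collagen or enzyme genes were higher and 0 lower, as for the 26 partners (0 and 0) and all genes (0 and 0, with 2861 at an unadjusted p below 0.05). Median centring moved the median of all genes by -0.10, turned the share of calls that were higher from 58.1% to 39.8% (1157 genes lower), lost Col1a1 and gave 4 partners lower, and quantile normalization gave 50.1% higher. With background raised 1 partner was lower, and 0 with the mean of probe sets. The replicate numbers gave no pairing (correlation of deviations 0.061 over 9506 genes above background). With the replicate block 11 collagen and enzyme genes were higher and 5 lower, adding Col4a5 and Loxl1. Calls rose over all genes too, to 1410 higher and 1060 lower with that block, from 1051 and 759.

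With 1 array left out, partner counts ran from 0 to 2 higher and 0 to 1 lower, those of the collagen and enzyme genes from 1 to 4 and 0 to 1, and those of all genes from 170 to 231 and 50 to 210. Medians then ran from -0.05 to 0.11 (fibrillar), -0.04 to 0.90 (basement membrane), -0.01 to 0.37 (other), -0.37 to -0.14 (hydroxylases), 1.14 to 1.49 (lysyl oxidases) and 0.00 to 0.31 (all 49). The basement membrane median was 0.16 with quantile normalization, 0.83 above background, 0.10 with background raised and -0.10 with the mean of probe sets, which gave 0.33 for the other collagens. The hydroxylase median was 0.18 above background and 0.09 with background raised, where the lysyl oxidase median was 0.56. The median of all 49 was 0.11 with quantile normalization, 0.05 with median centring, 0.23 above background and 0.00 with background raised. These medians hold many genes below background, so depth of signal limits them. Among the 28 genes above background, signs turned in Col1a2 (-0.07 with median centring, -0.04 with the mean of probe sets, -0.05 to 0.12 with 1 array left out), Col15a1 (-0.10 with the mean of probe sets, -0.15 to 0.35), Loxl2 (0.26, -0.18 to 0.13), Col16a1 (-0.02 with either normalization, -0.01 to 0.17) and P4ha2 (-0.03 with the mean of probe sets, -0.02 to 0.37), none of which passed. The other 21 genes were not followed one by one.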
